A study of Mus musculus with 19 samples.

Results

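The matrix proteases and their inhibitors described here were the 46 genes whose symbols in the deposited tables begin with Mmp, Adamts or Timp followed by a number and at most a letter. They were 23 matrix metalloproteinase genes (MMPs), 19 ADAMTS genes (a disintegrin and metalloproteinase with thrombospondin motifs) and 4 tissue inhibitors of metalloproteinases (TIMPs), of 55740 genes in the 3 tables. The rule reads gene symbols alone. All 46 were listed in the table of 7 tissues (55573 genes) and in the BAT table (55487 genes), and 32 of them in the iWAT table, from which lowly expressed genes are missing.

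MMPs and ADAMTS proteases are secreted or membrane-bound zinc enzymes that cut collagens, elastin, proteoglycans and other matrix proteins, and most are made as inactive precursors. TIMPs bind the active site of these enzymes and block it. In adipose tissue, remodelling of the collagen network around adipocytes accompanies fat growth, vessel growth and the appearance of thermogenic adipocytes.

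RNA-Seq of C57BL/6J mice came from a study of Musclin, a peptide that skeletal muscle secretes, and of its effects on fat. The paper used its tissue set to show where genes of candidate secreted proteins are expressed. Male WT mice gave 1 library for each of 7 tissues: small intestine, liver, heart, brain, tibialis anterior (TA) muscle and the white and brown adipose tissues. Neither the white depot nor the exact age behind these libraries was stated. The other sets compared MCK-Musclin mice with WT controls in inguinal white fat (iWAT) and in brown fat (BAT), with 3 libraries per group, after 1 week at 8 °C. The 4 cold groups were chow-fed male mice of 5 months. MCK-Musclin mice carry a transgene in which the muscle creatine kinase (MCK) promoter drives the Musclin coding sequence in skeletal muscle. They were backcrossed to C57BL/6J, and which founder line gave the libraries was not stated.

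The unit throughout is FPKM, fragments per kilobase of transcript scaled to the mapped fragments of a library, a level per length that can be compared between genes. Read totals were not analysed here. An estimate from the spacing of the smallest FPKM values put the depth of the tissue libraries at 0.918 to 1.05 times that of heart, and of the BAT libraries at 0.89 to 1.11 times that of WT library 1. No such estimate could be had for iWAT. The share of the FPKM sum taken by the 10 most abundant genes ran from 17% in white to 52.4% in brown adipose tissue. The FPKM sum itself ran from 393682 in brain to 711437 in brown adipose tissue, so the tissue libraries do not share one total.

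Markers fitted the tissue labels. Summed FPKM of 7 skeletal muscle markers was 72800 in TA muscle and that of 5 heart markers 29700 in heart. The corresponding lists reached 38200 for liver, 5250 for brain and 6200 for small intestine in the tissue of that name. Some lists had levels elsewhere too. Skeletal muscle markers summed to 500 FPKM in heart, 359 in brown and 238 in white adipose tissue. Liver markers summed to 426 FPKM in brain and 461 in small intestine. The part of this RNA in the levels of the members was not tested. Adipocyte markers summed to 15200 FPKM in white and 7180 in brown adipose tissue, and 5 brown fat markers (*Ucp1*, *Cidea*, *Elovl3*, *Cox8b*, *Dio2*) to 2330 in brown against 1.3 in white. The cold iWAT libraries also held lymphoid RNA: B and T cell markers summed to between 194 and 450 FPKM there, against 9.27 in the white adipose library of the tissue set and at most 2.39 in cold BAT.

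Of the 46 genes, 10 MMP genes lie in a single cluster on chromosome 9 (GRCm38, chr9:7272514-7699585), a stretch of 427072 bases that holds *Mmp13*, *Mmp12*, *Mmp1b*, *Mmp3*, *Mmp1a*, *Mmp10*, *Mmp8*, *Mmp27*, *Mmp20* and *Mmp7*. *Adamts1* with *Adamts5* on chromosome 16 and *Adamts15* with *Adamts8* on chromosome 9 form neighbouring pairs. The 250 bases before the transcription start, from RefSeq on GRCm38.p6, were at hand for 32 of the 46 genes, as 35 promoters. The AP-1 motif TGANTCA, searched on both strands, was in 8 of the 12 promoters of the cluster and in 0 of the 23 others of the families. Of all 32851 promoters of that length 6.75% held it. TATAAA, searched likewise, was in 7 of the 12 cluster promoters against 12.4% of all, and the 7 held both motifs against 1.21%. A match of letters is a description of the sequence and not a binding site.

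The promoters printed here are those of the 5 cluster genes that reached FPKM 1 in a tissue, shown because these neighbours shared the motif while their levels differed by tissue. Each is on the plus strand, 5′ to 3′, with TGANTCA and TATAAA in capitals. Positions are chr9:7272264-7272513 for *Mmp13*, chr9:7347124-7347373 for *Mmp12* (the later of its 2 listed starts), chr9:7445572-7445821 for *Mmp3*, chr9:7502092-7502341 for *Mmp10* and chr9:7691840-7692089 for *Mmp7* (the earlier of its 2). The promoters of the other start of *Mmp12* and of *Mmp7*, not printed, held neither motif.
*Mmp13*: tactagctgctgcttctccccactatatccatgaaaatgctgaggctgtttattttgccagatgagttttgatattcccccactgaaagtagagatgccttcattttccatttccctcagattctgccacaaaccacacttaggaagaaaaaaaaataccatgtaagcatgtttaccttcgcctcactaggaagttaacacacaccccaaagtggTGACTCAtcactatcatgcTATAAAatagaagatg
*Mmp12*: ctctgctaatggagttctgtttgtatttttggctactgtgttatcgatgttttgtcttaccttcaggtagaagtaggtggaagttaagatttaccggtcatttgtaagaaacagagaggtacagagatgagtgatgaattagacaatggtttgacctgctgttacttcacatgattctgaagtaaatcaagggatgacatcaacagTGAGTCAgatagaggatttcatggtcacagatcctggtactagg
*Mmp3*: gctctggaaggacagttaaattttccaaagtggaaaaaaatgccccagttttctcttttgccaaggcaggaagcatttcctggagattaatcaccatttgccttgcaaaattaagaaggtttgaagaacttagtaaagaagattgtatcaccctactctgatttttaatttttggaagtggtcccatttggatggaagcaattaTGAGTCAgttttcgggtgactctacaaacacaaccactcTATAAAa
*Mmp10*: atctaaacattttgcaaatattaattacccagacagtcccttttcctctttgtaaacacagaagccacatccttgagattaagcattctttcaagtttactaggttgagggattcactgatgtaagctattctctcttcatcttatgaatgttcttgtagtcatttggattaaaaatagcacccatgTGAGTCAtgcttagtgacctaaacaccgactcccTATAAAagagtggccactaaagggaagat
*Mmp7*: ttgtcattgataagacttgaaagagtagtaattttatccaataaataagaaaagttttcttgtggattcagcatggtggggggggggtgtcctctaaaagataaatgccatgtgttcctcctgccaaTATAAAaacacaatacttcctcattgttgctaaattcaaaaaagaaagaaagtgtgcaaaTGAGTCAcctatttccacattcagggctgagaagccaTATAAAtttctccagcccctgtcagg
The TGANTCA copy began 35 bases before the start in *Mmp13*, 44 in *Mmp12*, 46 in *Mmp3*, and 63 in both *Mmp10* and *Mmp7*. *Mmp12* alone of these 5 had no TATAAA in the window.

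White adipose tissue held more of the matrix proteases and inhibitors than any other of the 7 tissues. There 22 of the 46 genes reached FPKM 1 (47.8%, against 23.5% of all genes), compared with 17 in brain (37%, against 24.8%), 15 in brown adipose tissue (32.6%, against 20.7%), 15 in small intestine (32.6%, against 23.8%) and 14 in heart (30.4%, against 19.4%). TA muscle with 8 (17.4%, against 17.2%) and liver with 8 (17.4%, against 19.2%) were near the share of all genes. Over the 34 members that reached FPKM 1 in at least 1 tissue, the highest value lay in white adipose tissue for 18 (52.9%), where 20.2% of all 18327 genes at that level peaked. Brain was highest for 8 (29.7% of all genes), small intestine for 4 (27.1%), heart for 3 (3.65%) and brown adipose tissue for 1 (5.72%). No member was highest in TA muscle (5.49% of all genes) or liver (8.18%). Some of these orders are near ties that depend on the scaling. With FPKM rescaled to TPM, an alternative chosen after seeing the data, *Mmp14* and *Mmp11* were highest in white adipose tissue and *Mmp15* in liver, which left 20 in white adipose tissue (25.7% of all genes), 8 in brain, 3 in small intestine, 2 in heart, 1 in liver and 0 in brown adipose tissue. With 1 library per tissue there is no replicate and no test, so these are descriptions of these libraries. Of the other 12 genes, *Mmp1a*, *Mmp1b* and *Mmp21* were listed at 0 in all 7 tissues, and *Mmp8*, *Mmp20*, *Mmp25*, *Mmp27*, *Adamts13*, *Adamts16*, *Adamts17*, *Adamts18* and *Adamts19* stayed under FPKM 1.

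**Figure D1:**
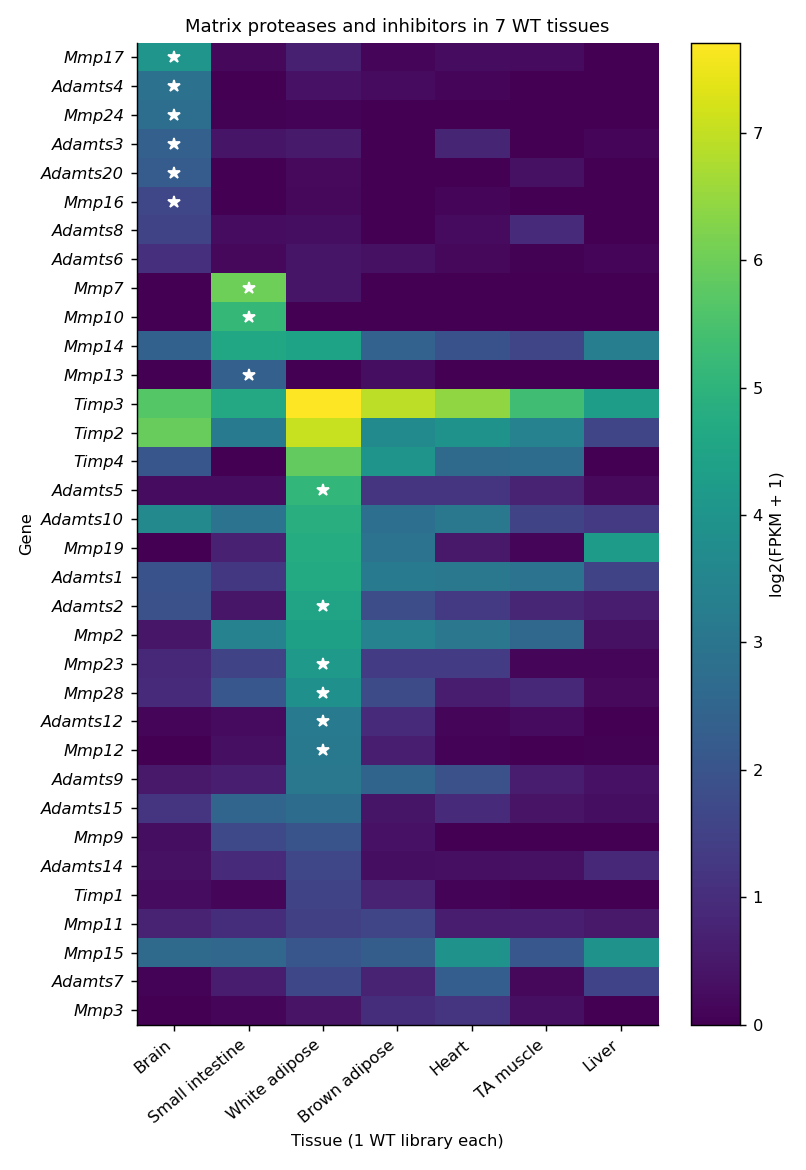
Level of each of the 34 genes that reached FPKM 1 in a tissue (rows) in the 7 WT tissues (columns, 1 library each), coloured by log2(FPKM + 1), with a star where the tissue led by the rule given in the text. The stars fall in brain (6), white adipose tissue (6) and small intestine (3).

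A tissue was said to lead where its FPKM was at least 1 and, with 0.1 added, at least 4 times that of the next tissue. By that rule 15 members had a leading tissue, 32.6% of the 46 against 8.65% of all genes in the table. Among genes at FPKM 1 or more in a tissue, it was 44.1% of the 34 members against 26.2% of all. Brain led 6 members (it led 11.6% of all such genes), white adipose tissue 6 (1.98%) and small intestine 3 (7.13%). Heart (0.808%), TA muscle (1.18%), liver (3.18%) and brown adipose tissue (0.415%) led none. The number with a leading tissue was 24 when a lead of 2 times was asked for, 70.6% of the 34 against 43.9% of all genes at FPKM 1 or more.

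The small intestine held 3 MMP genes of the chromosome 9 cluster that the other tissues nearly lacked. *Mmp7*, matrilysin, which activates antimicrobial defensins in Paneth cells, was at 62.7 FPKM there and at 0.342 in white adipose tissue, with 0 in the other 5. *Mmp10*, stromelysin 2, was at 34.3 FPKM in small intestine and listed at 0 in the other 6 tissues. *Mmp13*, a collagenase, was at 4.14 FPKM in small intestine, with 0.22 in brown fat and 0 in the other 5. All 3 have TGANTCA and TATAAA in the promoters printed above. *Mmp3*, *Mmp20*, *Mmp1a* and *Mmp1b* of the cluster held both motifs too, without such levels in small intestine. There *Mmp20* was at 0.143 FPKM, *Mmp3* at 0.1, and *Mmp1a* and *Mmp1b* at 0. *Mmp12* of the same cluster had another order, with 7.75 FPKM in white adipose tissue, 0.573 in brown adipose tissue and 0.249 in small intestine. *Mmp3* did not pass 1.22 FPKM in any of the 7. Whether the motifs bear on these levels was not tested.

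Brain led 3 membrane-anchored MMPs. *Mmp17*, anchored by a lipid, was at 15.3 FPKM in brain and at most 0.594 elsewhere. *Mmp24* was at 5.88 FPKM in brain with 0.0614 in the next tissue, and *Mmp16* at 2.11 FPKM with 0.113. These are 3 of the 6 membrane-type MMP genes, and the other 3 had different orders. *Mmp14*, the membrane-type protease that activates the precursor of *Mmp2*, was at 23.1 FPKM in small intestine and 21.3 in white adipose tissue. *Mmp15* was at 14.6 FPKM in heart and 14.4 in liver, while *Mmp25* stayed at or under 0.242 FPKM.

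ADAMTS genes of brain included *Adamts4*, an aggrecanase of the proteoglycan-cutting group, at 6.39 FPKM against 0.294 in white adipose tissue. *Adamts20* of the same group was at 3.78 FPKM in brain and at most 0.281 elsewhere. *Adamts8* was at 1.99 FPKM in brain and 0.925 in TA muscle, and *Adamts6* at 1.1 FPKM in brain and 0.34 in white adipose tissue. *Adamts3*, which belongs with the enzymes that trim procollagens, was at 4.13 FPKM in brain and 0.726 in heart. Its relatives peaked in fat instead. *Adamts2* was at 21.5 FPKM in white adipose tissue against 2.73 in brain, and *Adamts14* at 2.15 FPKM against 0.928 in small intestine.

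White adipose tissue had the largest summed ADAMTS level of the 7 tissues, 135 FPKM, followed by 38.6 in brain. *Adamts5*, the other main aggrecanase, was at 33.5 FPKM in white adipose tissue and 1.3 in heart. *Adamts10*, which binds fibrillin microfibrils, was at 27.9 FPKM in white adipose tissue and 11.3 in brain, and *Adamts1* at 25.3 FPKM with 8.00 in brown adipose tissue. *Adamts12*, which cuts cartilage oligomeric matrix protein, was at 7.99 FPKM in white adipose tissue and at most 0.914 elsewhere. *Adamts9* was at 7.55 FPKM in white and 4.61 in brown adipose tissue, and *Adamts15* at 5.67 FPKM in white adipose tissue and 4.72 in small intestine. *Adamts7*, of the same substrate group as *Adamts12*, peaked in heart at 3.91 FPKM.

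MMPs summed to 149 FPKM in small intestine, of which *Mmp7* and *Mmp10* made the larger part, and to 116 FPKM in white adipose tissue. In white adipose tissue the sum was spread over several genes. The most abundant was *Mmp19* at 26.3 FPKM, a gene also at 18.3 FPKM in liver. Exons of *Mmp19* share up to 1001 bases with genes of the opposite strand, whose reads cannot be told apart here. The gelatinase *Mmp2* was at 20 FPKM in white adipose tissue, then 9.67 in brown adipose tissue and 9.63 in small intestine, and the other gelatinase, *Mmp9*, at 2.97 FPKM in white adipose tissue. *Mmp23* (17.1 FPKM) and *Mmp28* (13.6 FPKM) were led by white adipose tissue, each at or under 3.25 FPKM in the other 6. *Mmp11*, a stromelysin-type enzyme activated inside the cell, differed little between brown (2.06 FPKM) and white (1.77 FPKM) adipose tissue.

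By summed level the inhibitors were the most abundant family in 5 of the 7 tissues, liver and small intestine being the exceptions. TIMP genes summed to 401 FPKM in white adipose tissue, 149 in brown adipose tissue, 114 in brain, 105 in heart, 55.2 in TA muscle, 32 in small intestine and 20.5 in liver. The MMP sum was 42.7 FPKM in liver. *Timp3*, the TIMP that binds to matrix and also blocks several ADAMTS enzymes, gave from 44.2% of the TIMP sum in brain to 90% in liver. In brain *Timp2*, the partner of *Mmp14* in activating *Mmp2*, was above it, at 60.0 FPKM against 50.2, and in white adipose tissue *Timp2* was at 134 FPKM. *Timp4* was at 57.5 FPKM in white adipose tissue, 14.9 in brown adipose tissue, 5.61 in TA muscle, and listed at 0 in liver. *Timp1*, the inducible TIMP, was low, with 2.00 FPKM in white adipose tissue and at most 0.667 elsewhere. The exons of *Timp3* share 1733 bases with a gene of the opposite strand, and because the alignment did not use strand, reads of overlapping genes cannot be told apart.

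Cold WT mice gave a second view of white and brown fat with 3 libraries each. The tables were deposited separately, so levels are set side by side without a test. In iWAT of cold WT mice 21 of the 32 listed members had a mean of FPKM 1 or more (65.6%, against 88.2% of all genes in that table, which lacks most low genes) and 10 reached FPKM 10. In BAT 13 of 46 reached FPKM 1 (28.3%, against 19.5% of all) and 2 FPKM 10. The tables list different genes, so these shares are read within each. *Timp2* was at 102 ± 17 FPKM (mean ± SD, n = 3) in iWAT and 5.46 ± 0.737 in BAT. *Mmp2* was at 45.5 ± 7.03 FPKM in iWAT and 3.06 ± 0.992 in BAT. *Mmp14*, which works with that pair, was at 41.3 ± 2.20 FPKM in iWAT and 2.67 ± 0.716 in BAT. Marker sums of cell types differed as well. Fibroblast and preadipocyte markers summed to 461 ± 33.4 FPKM in WT iWAT and 45.8 ± 8.83 in WT BAT. For macrophage markers the sums were 594 ± 17.6 and 49.2 ± 6.6 FPKM. Brown fat markers went the other way, at 685 ± 191 and 7440 ± 601 FPKM. The part of these cell types in the depot levels was not tested. Being lower in BAT was common to most genes listed in both tables. The mean FPKM was lower in BAT for 31 of the 32 members in both tables, *Adamts3* being the exception. The same held for 85.8% of all genes in both. This tally covers only genes kept in the iWAT table, which lacks most low genes, so it leans toward lower in BAT. Members missing from that table do not enter it, and how far this shaped the shares was not tested. *Mmp3* had 27.0 ± 1.97 FPKM in iWAT and 1.57 ± 0.646 in BAT. *Timp3* was the most abundant member in both, at 216 ± 47.7 and 59.3 ± 6.29 FPKM. *Adamts9* (4.81 ± 0.581 FPKM in iWAT and 4.72 ± 0.297 in BAT) and *Mmp15* (2.55 ± 0.454 and 2.46 ± 0.2) had close FPKM values in the depots as deposited. That closeness rests on the scaling. Mitochondrially encoded genes numbered 0 in the iWAT table and 37 in the BAT one, so the totals of the tables, about 367000 and 715000 FPKM in WT, cover different genes. Over the 13750 genes in both tables the WT sums were about 367000 FPKM in iWAT and 265000 in BAT. Scaled to that common sum (in FPKM per 1e+06, chosen after seeing the data), *Adamts9* was at 13.1 ± 1.62 in iWAT and 17.9 ± 1.02 in BAT. *Mmp15* was at 6.95 ± 1.2 and 9.31 ± 0.801, while *Timp2* (278 ± 45.7 and 20.6 ± 3.01) and *Mmp2* (124 ± 19.3 and 11.6 ± 3.89) stayed far apart. On that sum 29 of the 32 were lower in BAT, against 74.1% of all genes, *Adamts3*, *Adamts9* and *Mmp15* being higher there. This tally too covers only genes kept in the iWAT table. In BAT, 8 members were listed at 0 in all 6 libraries: *Adamts13*, *Adamts16*, *Adamts19*, *Mmp1a*, *Mmp1b*, *Mmp7*, *Mmp10* and *Mmp20*.

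**Figure D2:**
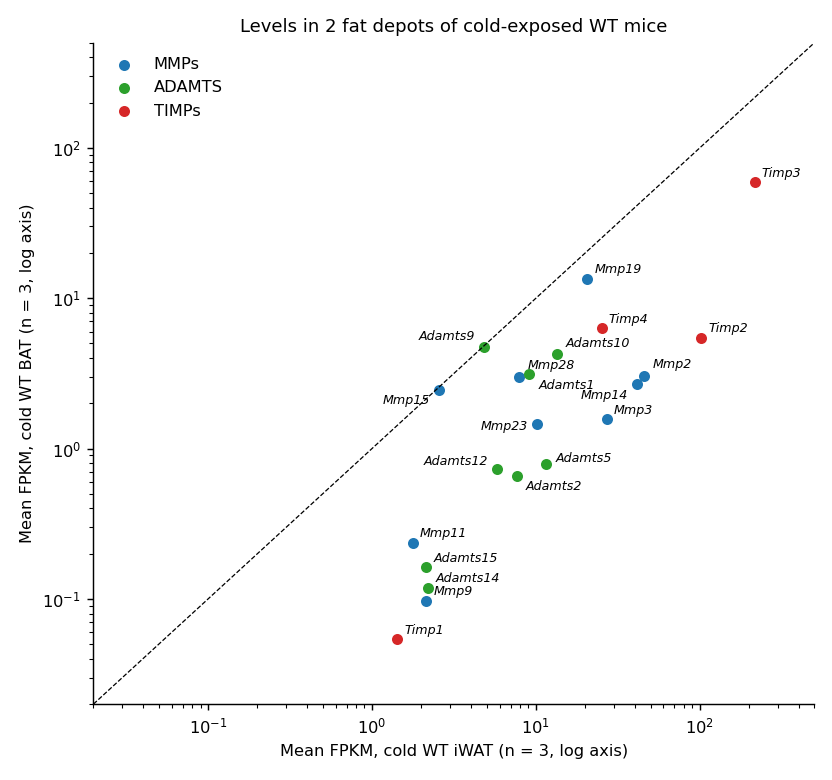
Mean FPKM of the genes at FPKM 1 or more in either depot, in iWAT (horizontal log axis) and BAT (vertical log axis) of cold WT mice, 3 libraries each, with a dashed line of equal level. *Adamts9* and *Mmp15* lie on the line of equal FPKM as deposited, while *Timp2*, *Mmp2*, *Mmp14* and *Mmp3* lie far to its lower right.

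In iWAT of cold mice, the question was how MCK-Musclin fat differed from WT fat in these genes. *Mmp12*, the macrophage metalloelastase that cuts elastin, was the single member at the study's cutoff and was higher in MCK-Musclin mice, from a WT level under FPKM 1. The gelatinases, membrane-type MMPs, stromelysins, TIMPs and ADAMTS genes had overlapping groups apart from *Adamts12*. Of the 32 members in the iWAT table, 22 had a mean of at least FPKM 1 over the 6 libraries and were tested, among 12197 genes. The test was limma on log2(FPKM + 1), with the study's cutoff of an unadjusted p under 0.05 and a log2 fold change beyond 0.5.

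*Mmp12* (ENSMUSG00000049723) had 0.296, 0.345 and 1.03 FPKM in the WT libraries and 2.80, 1.80 and 4.16 FPKM in the MCK-Musclin libraries. The groups did not overlap, all MCK-Musclin values being the higher, and WT library 3 was the highest of its group. The means were 0.557 ± 0.410 and 2.92 ± 1.19 FPKM (n = 3 each), a ratio of mean FPKM of 5.25. On the log2(FPKM + 1) scale, which understates ratios of low genes, the log2 fold change was 1.32 (SE 0.27, 95% interval 0.69 to 1.94), with an unadjusted p of 0.00146 and an adjusted p of 0.143 in limma. The adjusted p did not pass 0.05. An exact permutation test of 3 libraries against 3 could not give a p below 0.1. *Mmp12* passed the filter through its MCK-Musclin level alone, since its WT mean was under FPKM 1. With no filter on level it was called too, at a log2 fold change of 1.32 and an unadjusted limma p of 0.0013. Its exons share 157 bases with *Mmp1b* on the opposite strand, and *Mmp1b* is not in the iWAT table.

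Read against all genes, the count of higher members at the cutoff was near the share of all genes. At the cutoff 1 of 22 members was higher (5.04% of all genes tested, 615) and 0 were lower (0.902% of all, 110). Of the 615, 25 genes (4.07%) were under FPKM 1 in WT, *Mmp12* among them. With no filter 1 of 32 members was higher, against 4.55% of all genes. By groups that did not overlap, 1 was higher (17.9% of all) and 1 lower (5.44%). At an unadjusted limma p under 0.05 alone, 1 was higher (13.1% of all) and 0 lower (3.44%). No gene of the 12197 reached an adjusted p under 0.05 in limma (0%). The median log2 fold change was 0.07 over the 22 and 0.06 over all genes, with 13 members above 0 and 9 below (61.3% of all genes were above 0 and 38.7% below).

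**Figure D3:**
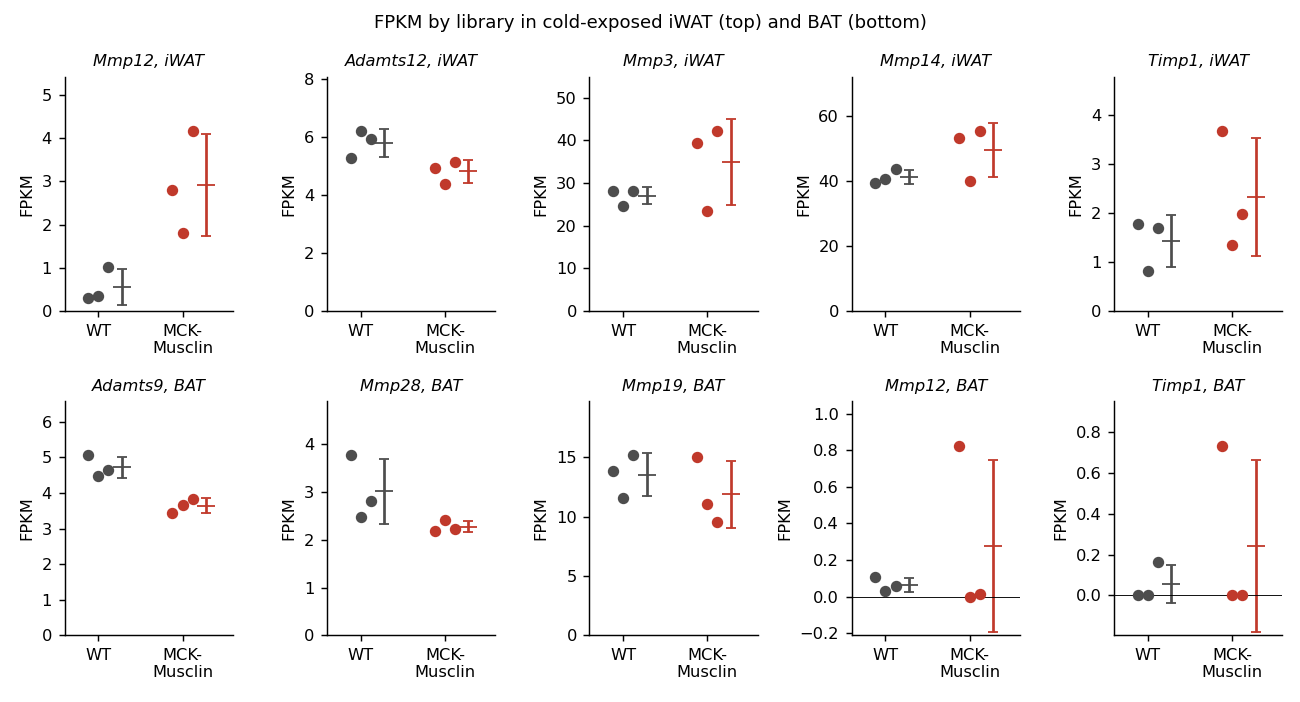
FPKM in each library (points) of WT and MCK-Musclin mice for 5 genes in iWAT (top) and 5 in BAT (bottom), with the mean and SD beside the points; the lower panels of *Mmp12* and *Timp1* are at levels under FPKM 1. In iWAT the groups of *Mmp12* and *Adamts12* separate and those of *Mmp3*, *Mmp14* and *Timp1* overlap, and in BAT those of *Adamts9* and *Mmp28* separate.

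Marker sums of B and T cells and of lymph node stroma separated the genotypes in iWAT, as *Mmp12* did, and those of macrophages and neutrophils overlapped. All 10 macrophage markers were measured, none at 0, with *Lyz2* the most abundant. They summed to 614, 583 and 584 FPKM in WT and 834, 597 and 851 FPKM in MCK-Musclin libraries. The groups of that sum overlapped. MCK-Musclin library 2, which had the lowest *Mmp12* of its group, was below WT library 1, and the other MCK-Musclin libraries were above all WT libraries. At the cutoff 1 of the 10 was higher, *Cd68*, from 63.6 ± 18.6 to 101 ± 22.2 FPKM, and the median log2 fold change of the list was 0.22. *Lyz2* had groups without overlap, at 340 ± 23.3 FPKM in WT and 456 ± 77.5 in MCK-Musclin fat, and a log2 fold change of 0.41 (unadjusted limma p 0.0268) that did not reach the cutoff. MCK-Musclin library 2 was above WT library 1 by under 1 FPKM, both near 366. *Lyz2* and *Cd68* were the 2 of the 10 at an unadjusted limma p under 0.05. B and T cell markers, with 9 of 10 in the table and *Cd79a* the most abundant, summed to 298, 194 and 197 FPKM in WT and 370, 450 and 445 FPKM in MCK-Musclin libraries. Of these, 7 were higher at the cutoff, none was at 0, and the median was 0.74. Within the MCK-Musclin group that sum did not follow *Mmp12*, being highest in library 2.

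Lymph node stroma markers were likewise higher. With 6 of 7 in the table, none at 0 and *Cxcl13* the most abundant, they summed to 339, 178 and 157 FPKM in WT and 369, 360 and 579 FPKM in MCK-Musclin libraries, and all 6 were higher at the cutoff with a median of 0.70. *Madcam1*, 1 of the 6, passed the filter through its MCK-Musclin level (0.964 FPKM in WT and 1.90 in MCK-Musclin fat). Neutrophil markers had 3 of 8 in the table and summed to 4.53, 2.12 and 1.77 FPKM in WT and 11.3, 20.1 and 4.10 FPKM in MCK-Musclin libraries. Of the 3, 2 were higher at the cutoff, *Ngp* and *S100a8*, with a median of 1.58. Their WT means were 0.543 and 0.634 FPKM, so both passed the filter through the MCK-Musclin level alone. *Ngp* was the most abundant of them, and *S100a8* was at 0 in WT library 3. The sum put MCK-Musclin library 2 highest, where *Mmp12* was the lowest of the MCK-Musclin group. Adipocyte markers, 8 of 8 measured with *Fabp4* on top, went the other way. They summed to 15700, 17000 and 16800 FPKM in WT and 14000, 14800 and 15900 FPKM in MCK-Musclin libraries, overlapping, with 0 past the cutoff and a median of −0.15. The iWAT libraries thus held differing levels of lymphoid and lymph node marker RNA. How much lymph node each sample held was not measured, and the part of it and of these cell types in the *Mmp12* result and the other iWAT values was not tested. In bulk tissue, fewer cells of a type and less RNA per cell cannot be told apart.

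**Figure D4:**
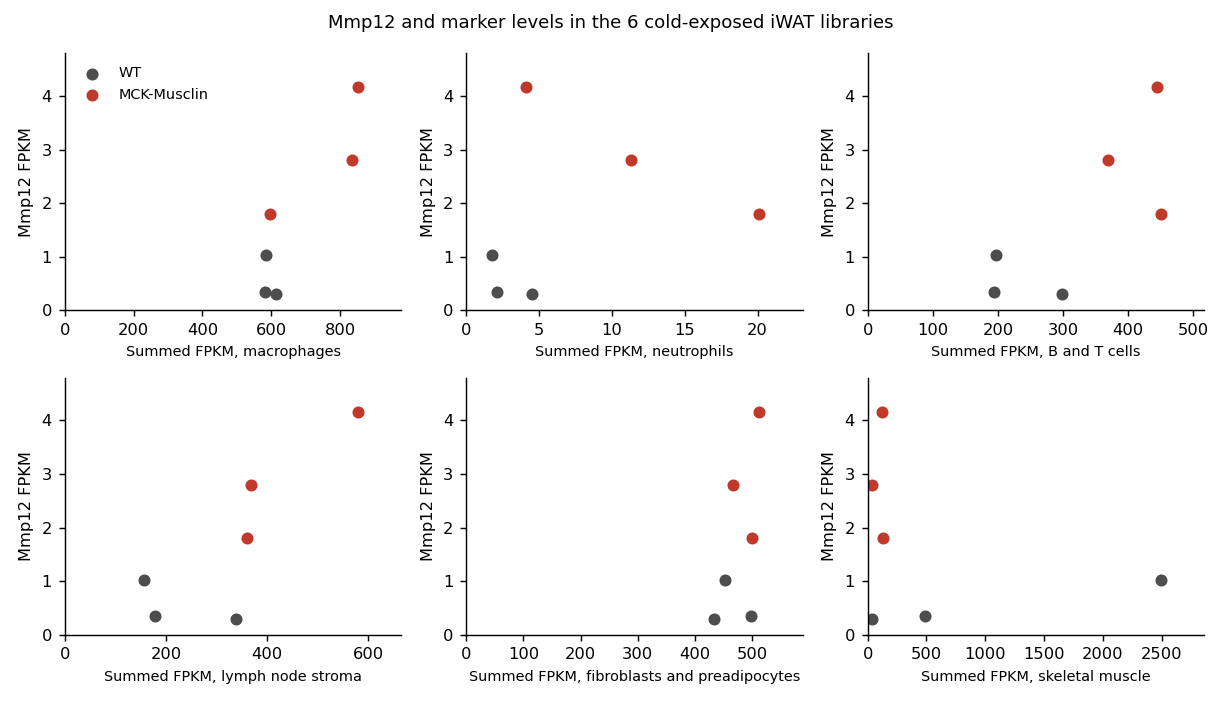
*Mmp12* FPKM (vertical) against the summed FPKM of 6 marker lists (horizontal, 1 panel each) in the 6 cold iWAT libraries, coloured by genotype. MCK-Musclin libraries have the higher *Mmp12* and the higher B and T cell sums, and MCK-Musclin library 2 has a macrophage sum near the WT libraries.

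Further marker lists also differed between the iWAT libraries. Skeletal muscle markers, 7 of 7 with *Tnnt3* most abundant, summed to 40.9, 488 and 2490 FPKM in WT and 36.7, 129 and 126 FPKM in MCK-Musclin libraries, with *Ckm* at 0 in library 1 of both groups, *Myh4* at 0 in WT library 1 and *Pvalb* at 0 in MCK-Musclin library 1. WT library 3 thus held far more muscle RNA than the others, and its *Mmp12* was the highest WT value. Brown fat markers, which thermogenic adipocytes of iWAT itself also express, summed to 481, 714 and 860 FPKM in WT and 544, 178 and 102 FPKM in MCK-Musclin libraries, with 3 of 5 lower at the cutoff (*Cidea*, *Ucp1* and *Elovl3*). Their part was not tested either. Of the remaining marker lists, heart had 2 of 5 genes in the table, *Tnnt2* and *Tnni3*, both higher at the cutoff, of which *Tnnt2* (0.849 and 1.85 FPKM) passed the filter through its MCK-Musclin level. With no filter on level these marker genes under FPKM 1 in WT (*Ngp*, *S100a8*, *Madcam1* and *Tnnt2*) were called as well. Fibroblast and preadipocyte markers (median 0.13) and endothelial and mural cell markers (median 0.02) had 0 calls, as had the liver, brain, small intestine and mammary epithelium lists.

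*Adamts12* (ENSMUSG00000047497) was at 5.26, 6.2 and 5.92 FPKM in WT iWAT and at 4.92, 4.37 and 5.13 FPKM in MCK-Musclin iWAT. The groups did not overlap, but MCK-Musclin library 3 was close under WT library 1. Its log2 fold change was −0.23 (SE 0.11), with an unadjusted p of 0.0794 and an adjusted p of 0.356 in limma, so it did not pass the cutoff. The 4 tested ADAMTS proteoglycanases were all below 0 (38.7% of all genes), with a median log2 fold change of −0.23 and none past the cutoff or at an unadjusted limma p under 0.05. The nearest to that limit were *Adamts1* (9.13 ± 1.01 FPKM in WT and 7.19 ± 1.05 in MCK-Musclin fat) and *Adamts9* (4.81 ± 0.581 and 3.77 ± 0.533). Their groups overlapped. The list median was −0.03 when libraries were centred on the adipocyte markers, which moved the median over all genes from 0.06 to 0.26.

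The enzymes that trim procollagens showed no called difference. *Adamts2* was at 7.64 ± 1.24 FPKM in WT and 8.32 ± 1.04 in MCK-Musclin iWAT, and *Adamts14* at 2.20 ± 0.386 and 2.76 ± 0.443 FPKM. *Adamts10* was at 13.4 ± 1.33 and 15.5 ± 1.36 FPKM. The aggrecanase *Adamts5*, the most abundant of its group in iWAT, was at 11.6 ± 1.36 and 10.2 ± 1.86 FPKM. *Adamts15* was at 2.15 ± 0.975 and 2.04 ± 0.744 FPKM. Summed over the ADAMTS genes in the table, the level was 59.3 ± 1.93 FPKM in WT and 57.6 ± 3.23 in MCK-Musclin fat.

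For *Mmp14* and *Mmp3* in iWAT, MCK-Musclin library 2 differed from the others of its group. *Mmp14* was at 39.4, 40.8 and 43.7 FPKM in WT and at 53.4, 39.9 and 55.4 FPKM in MCK-Musclin mice. *Mmp3*, stromelysin 1, was at 28.2, 24.7 and 28.1 FPKM in WT and at 39.4, 23.4 and 42.2 FPKM in MCK-Musclin mice. MCK-Musclin libraries 1 and 3 were above all WT libraries for both genes, and library 2 was within or below them. Library 2 was also the lowest of its group for *Mmp2* (36.8 FPKM) and *Timp2* (76.0 FPKM) and the highest of all 6 for *Timp4* (45.6 FPKM). Without it, 2 of 22 members were higher at the cutoff, *Mmp12* and *Mmp3*, against 5.45% of all genes in that fit (664). The gelatinase *Mmp2* was at 45.5 ± 7.03 FPKM in WT and 48.0 ± 9.77 in MCK-Musclin fat, and *Mmp9* at 2.14 ± 0.562 and 2.43 ± 0.0969.

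The other tested MMPs stayed within their spread. *Mmp19* was at 20.6 ± 0.580 FPKM in WT and 19.4 ± 2.49 in MCK-Musclin fat, *Mmp23* at 10.2 ± 1.21 and 10.9 ± 0.164, and *Mmp28* at 7.84 ± 1.41 and 6.43 ± 0.466. *Mmp11* and *Mmp15* lay between 1.59 and 3.06 FPKM in all 6 libraries. *Timp3* was at 216 ± 47.7 FPKM in WT and 208 ± 5.51 in MCK-Musclin fat, and *Timp2* at 102 ± 17 and 104 ± 24.7. The TIMP sum was 345 ± 65 FPKM in WT and 342 ± 16.1 in MCK-Musclin fat, beside an MMP sum of 162 ± 8.50 and 181 ± 31.3. *Timp1* was at 1.78, 0.815 and 1.71 FPKM in WT and 3.68, 1.34 and 1.98 FPKM in MCK-Musclin mice. Its groups overlapped, and MCK-Musclin library 1 was the highest of the 6.

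**Figure D5:**
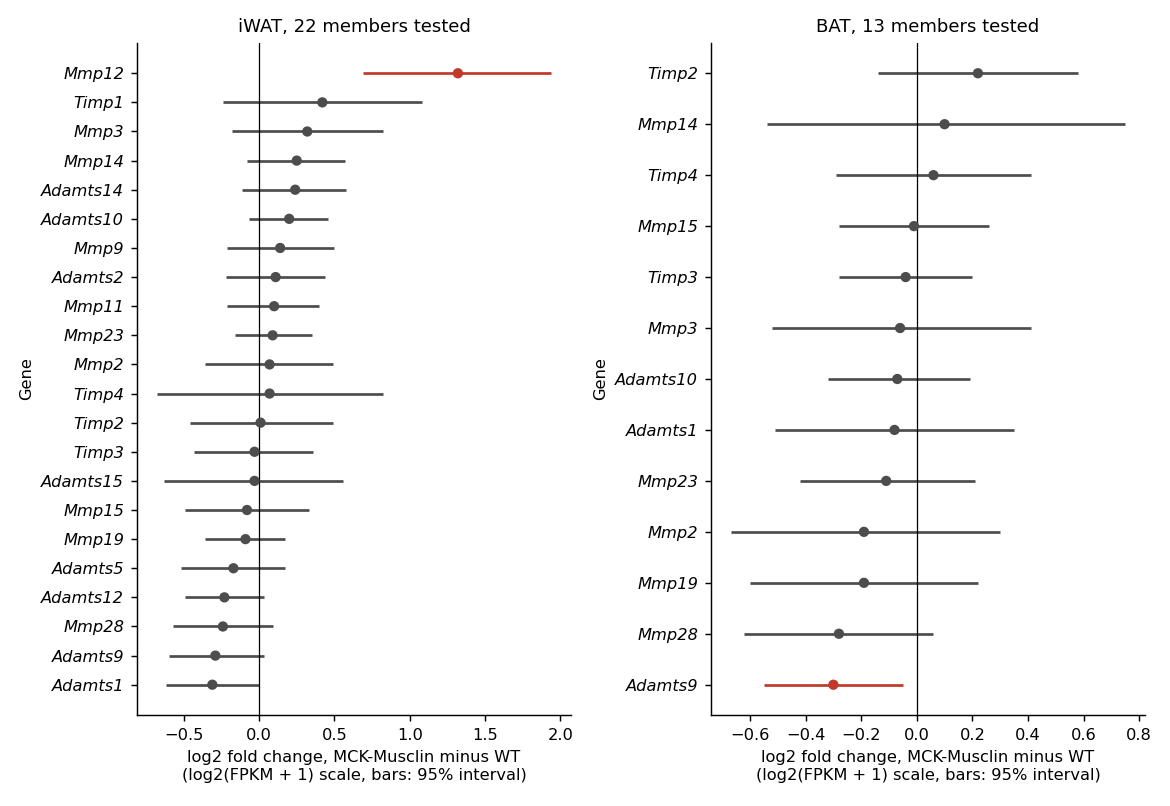
Log2 fold change of MCK-Musclin against WT, on log2(FPKM + 1), with 95% intervals for the 22 members tested in iWAT and the 13 tested in BAT; red marks those at the cutoff of the study. The interval of 21 of the 22 in iWAT and of 12 of the 13 in BAT holds 0, the exceptions being *Mmp12* and *Adamts9*.

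Genes that act with these families in iWAT gave 0 calls at the cutoff in all 5 related lists. Of 9 tested genes of the plasminogen system, a protease cascade that activates MMPs, 0 were called, with a median log2 fold change of −0.02. *Furin*, which activates *Mmp14* inside the cell, was the gene of that list without overlap, at 9.59 ± 1.47 FPKM in WT and 8.07 ± 0.521 in MCK-Musclin fat. The 8 ADAMs, membrane-bound relatives that shed cell surface proteins, had a median of 0.06. *Adam8*, an ADAM of leukocytes, had groups without overlap at 2.15 ± 0.507 and 3.30 ± 0.253 FPKM and was the list's only gene at an unadjusted limma p under 0.05. The medians were 0.00 for 4 ADAMTS-like genes and −0.05 for 4 other inhibitors. Of 14 matrix substrates tested, 12 were above 0 (61.3% of all genes) and none called, with a median of 0.15. *Col1a1* was at 33.1 ± 8.24 and 41.2 ± 2.35 FPKM, and *Lama4*, the exception without overlap, was at 29.3 FPKM in WT and 25.4 in MCK-Musclin fat.

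For BAT the same genotypes were compared, and fewer of these genes reached a testable level. *Adamts9*, a proteoglycan-cutting ADAMTS, was lower in MCK-Musclin mice and was the single member at the study's BAT cutoff of an unadjusted p under 0.05 and a log2 fold change beyond 0.3. *Mmp28*, epilysin, had groups that did not overlap. The TIMPs had overlapping groups. Of the 46 members, 13 were tested among 10893 genes.

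*Adamts9* (ENSMUSG00000030022) was at 5.05, 4.47 and 4.64 FPKM in WT BAT and 3.43, 3.68 and 3.83 FPKM in MCK-Musclin BAT. Every MCK-Musclin library was below every WT library. The means were 4.72 ± 0.297 and 3.65 ± 0.202 FPKM (n = 3 each), and the log2 fold change was −0.30 (SE 0.11, 95% interval −0.55 to −0.05), with an unadjusted p of 0.0254 and an adjusted p of 0.968 in limma. The value sits at the cutoff, and the call was lost when FPKM was rescaled to TPM (log2 fold change −0.30 after rounding, unadjusted limma p 0.0354) or scaled by median ratio (−0.29, p 0.0300). There the p stayed under 0.05 and the fold change fell just short of the cutoff. With the replicate number as a block the call was lost through the p, at 0.055. It was also lost without WT library 1, WT library 3 or MCK-Musclin library 2, which left 0 members lower. Without MCK-Musclin library 1 the member called lower was *Mmp19*. Exons of *Adamts9* share 1805 bases with genes of the opposite strand, whose reads cannot be told apart here.

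*Mmp28* (ENSMUSG00000020682) was at 3.77, 2.47 and 2.81 FPKM in WT BAT and 2.19, 2.41 and 2.23 FPKM in MCK-Musclin BAT. WT library 1 stood highest, and WT library 2 was only just above the MCK-Musclin libraries. Its log2 fold change was −0.28 (SE 0.15), with an unadjusted p of 0.096 and an adjusted p of 0.968 in limma. It was past the cutoff without WT library 2, and shares 466 exon bases with a gene of the opposite strand.

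At the cutoff, 0 of 13 members were higher in BAT (1.85% of all genes tested, 202) and 1 was lower (2.15%, 234). By groups that did not overlap, 0 were higher (4.38%) and 2 lower (5.63%). At an unadjusted limma p under 0.05 alone, 0 were higher (2.18%) and 1 lower (2.71%). An adjusted p under 0.05 in limma was reached by 1 gene of 10893 (0.00918%), which was not a member. The median log2 fold change was −0.07 over the 13 and −0.01 over all genes, with 3 members above 0 and 10 below (47.7% and 52.3% of all genes), and centring on adipocyte markers put the medians at 0.08 and 0.13.

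Markers of other cell types also differed in BAT. Endothelial and mural cell markers, 9 of 9 measured with *Rgs5* most abundant and none at 0, summed to 229, 231 and 238 FPKM in WT and 203, 210 and 214 FPKM in MCK-Musclin libraries. None passed the cutoff and their median log2 fold change was −0.16, with *Cdh5* at 63.9 ± 1.32 and 54.0 ± 1.93 FPKM. Skeletal muscle markers, 7 of 7 with *Tnnt3* most abundant and none at 0, summed to 359, 487 and 335 FPKM in WT and 1090, 540 and 734 FPKM in MCK-Musclin libraries, and 6 of them were higher at the cutoff. Both sums separated the groups, as *Adamts9* and *Mmp28* did, and their part in those results was not tested. Of the other lists, *Csf1r* among macrophage markers was higher and *Cox8b* among brown fat markers lower at the cutoff, and the rest had 0 calls.

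MCK-Musclin library 1 of BAT stood apart for the macrophage enzyme. *Mmp12* was at 0.108, 0.0308 and 0.0559 FPKM in WT and at 0.820, 0 and 0.0112 FPKM in MCK-Musclin libraries. *Timp1* was at 0.732 FPKM in that library and at most 0.162 in the other 5. Macrophage markers, 10 of 10 with none at 0 and *Lyz2* most abundant, summed to 127 FPKM there against 41.0 and 46.8 in the other MCK-Musclin libraries and 48.3, 43.1 and 56.2 in WT. Both genes were below the level tested, and the part of the macrophage signal was not tested.

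The other 11 members tested in BAT had overlapping groups. Below the level tested, *Mmp24* did not overlap either, at 0.022 ± 0.0112 FPKM in WT, above 0 in all 3, and 0 in the MCK-Musclin libraries. *Timp3* was at 59.3 ± 6.29 FPKM in WT and 57.4 ± 3.71 in MCK-Musclin fat and made from 79.9% to 83.9% of the TIMP sum in a library. *Mmp19*, the most abundant MMP of BAT, was at 13.5 ± 1.81 and 11.9 ± 2.84 FPKM, with the exon overlap given above. *Timp2* was at 5.46 ± 0.737 and 6.54 ± 1.27 FPKM, and *Timp4* at 6.32 ± 0.858 and 6.65 ± 1.1. The sums were 71.1 ± 7.96 and 70.8 ± 4.38 FPKM for TIMPs and 28.5 ± 4.05 and 26 ± 4.92 for MMPs. ADAMTS genes summed to 15.4 ± 0.404 FPKM in WT and 14.1 ± 0.462 in MCK-Musclin fat, a sum that separated the groups. It includes *Adamts9*, the largest of them in WT, at 4.72 ± 0.297 and 3.65 ± 0.202 FPKM. The separation of the sum is therefore not independent of that gene. *Adamts10* was at 4.25 ± 0.310 and 4.01 ± 0.256 FPKM.

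The 5 related lists had 0 calls at the cutoff in BAT. The median log2 fold changes were 0.17 for the single ADAMTS-like gene tested, *Papln*, 0.04 for 6 plasminogen system genes, −0.09 for 2 other inhibitors, 0.03 for 6 ADAMs and 0.05 for 11 matrix substrates. Whether the genotype difference of any member differed between iWAT and BAT was not tested.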

How the data were processed

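The deposited values were FPKM per gene and library, which the authors made from mRNA isolated with oligo(dT), fragmented, reverse-transcribed from random primers and built into libraries with a SMART-RNAseq kit for Illumina sequencing. Reads passed through fastp and bowtie2, HISAT2 aligned them to mm10 (GRCm38) without strand, and StringTie gave the FPKM, by the paper's account. The submitters' processing notes give Bowtie2 2.4.1 and HISAT2 2.1.0 and name Cuffdiff in place of StringTie, so which program gave the FPKM is not certain. The iWAT table also holds columns of the authors' own DESeq2 comparison (log2 fold change, p-value, FDR and mean normalized signal of each group). These were neither used nor printed. How the authors filtered the iWAT table was not stated.

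Genes of mean FPKM 1 or more over a comparison's 6 libraries were tested on log2(FPKM + 1) by limma (lmFit, eBayes with trend), with Benjamini-Hochberg adjustment over all genes tested. The cutoffs are the study's (the p limit of 0.05, unadjusted, and a log2 change over 0.5 for iWAT and over 0.3 for BAT). All per-library columns were used (0 left out), and 287 repeated lines in each of the tissue and BAT tables were dropped. Alternatives were other pseudocounts, filters, scalings, eBayes settings, cutoffs, tissue leads, a block and each library left out. R 4.3.3, limma 3.58.1, Python 3.11.15, pandas 2.3.3, numpy 2.4.6, scipy 1.17.1 and matplotlib 3.10.9 were used, with the GENCODE annotation of GRCm38 and promoters from RefSeq.

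Members could be named with their values where they passed a cutoff, had groups without overlap or reached FPKM 1 in a tissue, and genes of the written lists could be named. The lists (12 roles, 5 related groups, 14 marker lists) were written by hand. Members and lists were chosen with earlier results of these data known.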

Additional observations from a re-analysis of the deposited data

How the results depend on the processing

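Replicate numbers were shared between the groups, and the main fit did not treat same-numbered libraries as pairs. Whether the numbers mark pairs was not tested, and the values differed between the depots. Same-numbered libraries correlated at 0.0615 to 0.235 in iWAT (2 of 3 pairs over 0.1) and −0.0951 to 0.00937 in BAT (0 of 3), and 5 of 6 iWAT and 0 of 6 BAT libraries correlated best with their own number. With the number as a block, BAT members lower at the cutoff went from 1 to 0, since the *Adamts9* p rose to 0.055, and in iWAT *Mmp12* was still called.

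In iWAT, members higher went from 1 to 0 at a filter of mean FPKM 5, which removes *Mmp12*, and ranged from 1 to 2 without single libraries. Centring on adipocyte markers was chosen after seeing the data. All genes higher (615) numbered 1803 when centred and 1342 at a log2 cutoff of 0.3 (527 to 844 without single libraries). All genes lower (110) numbered 71 at mean FPKM 5, 201 under TPM, 184 by median ratio, 181 by quantile, 30 centred and 341 at 0.3 (92 to 213 without single libraries). The higher share of calls was 84.8%, and 70% by median ratio, 70.2% by quantile and 98.4% centred. Genes with a limma adjusted p under 0.05 numbered 305 centred and at most 86 without single libraries. *Mmp12* kept a log2 fold change of 1.25 to 2.52 under the other settings, and 1.1 to 1.54 without single libraries.

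In BAT, members lower were 0 at mean FPKM 5, under TPM, median ratio, quantile and centring and at a log2 cutoff of 0.5, and 0 to 2 without single libraries. All genes higher (202) numbered 102 at mean FPKM 5, 468 centred and 98 at 0.5 (167 to 280), and all genes lower (234) numbered 114, 50 and 73 (240 to 301). The higher share of calls went from 46.3% to 90.3% centred and 57.3% at 0.5. Members with a leading tissue (15) numbered 24 at a lead of 2 times. Apart from the filters and cutoffs, the cause was not tested. No log2 fold change of the 4 named members (*Mmp12* and *Adamts12* in iWAT, *Adamts9* and *Mmp28* in BAT) changed sign, and 55 of 65 kept their side of the cutoff. Medians near 0 did change sign. The members' median in iWAT was 0.07, −0.01 by median ratio and −0.05 to 0.11 without single libraries, and in BAT it was −0.07, 0.01 at mean FPKM 5 and 0.08 centred. Rescaling tissues to TPM, also chosen after seeing the data, took members highest in liver from 0 to 1 and in brown adipose tissue from 1 to 0.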
